A study of Mus musculus with 9 samples.

Results

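The genes described here are 9 components and controls of the complement system and its partner pentraxin in cultured rat cardiomyocytes: C1qa, C1qb, C1qc, C1r, C1s, Serping1, C3, Cfb and Ptx3. They were chosen by name, not by their values in these libraries' tables, although earlier results of the same data were known when they were chosen, and they are 9 of 15144 gene symbols. All 9 stood in each of the 3 tables, 1 for each pair of groups.

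The cells were primary neonatal ventricular cardiomyocytes of Sprague Dawley rats aged 1 to 2 days, kept in culture for 48 h and then infected with adenovirus at 50 infectious units per cell (the multiplicity of infection). The control virus carried LacZ (bacterial β-galactosidase), and the other groups received Nrf1 (the product of Nfe2l1) or Nrf2 (the product of Nfe2l2), with 3 samples per group and RNA taken 48 h after infection. Both factors were mouse coding regions under the CMV promoter, which is active in most cell types, in a vector that also held a red fluorescent protein, so every group, LacZ included, had been exposed to virus. GEO names the organism as mouse, whereas the cell descriptions and the genome build are those of rat. Nothing in the labels says whether the 3 samples of a group were separate preparations, so p-values measure the spread between these samples, which may be technical.

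Complement is a cascade of plasma proteins that tags cells and debris for removal and draws in leukocytes. In the classical route C1q binds a surface, and the proteases C1r and C1s that it carries cut C4 and C2 to build an enzyme that cleaves C3. The alternative route amplifies C3 cleavage with factor B, and both routes lead to the membrane attack complex. In heart tissue macrophages are a main source of C1q, while C1r, C1s and C3 are made by many cell types, fibroblasts included.

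The deposited files hold 1 mean of normalized reads per group and gene. Whole reads of each library were recovered from those means, and are given below as reads per 1000000 recovered reads of the library (RPM). The 3 libraries of a group are called a, b and c by falling depth, from 7980658 to 11965122 reads over all 9, and cannot be tied to replicate numbers. Nfe2l2, whose coding region the Nrf2 virus carried, stood at 364 to 369 RPM with LacZ, at 287 to 294 RPM with Nrf1 and at 6796 to 7946 RPM with Nrf2. Nfe2l1 was not analysed here, so the Nrf1 label had no such check. Cardiomyocyte markers were abundant in every library, with 17415 to 21381 RPM summed over 11 genes, but fibroblast markers (3506 to 14788 RPM over 12 genes) and leukocyte markers (166 to 484 RPM over 20 genes) were present too.

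LacZ library b stood apart from the other LacZ libraries. It held the highest LacZ value for 8 of the 9 genes, for 18 of 20 leukocyte markers and for 12 of 12 fibroblast markers, whereas LacZ library a held the highest value for 9 of 11 cardiomyocyte markers. The 9 genes and the marker lists are therefore also given without library b in the comparisons with LacZ.

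All 9 genes fell with Nrf1 and with Nrf2. Against LacZ, the group means were 46.4 to 83.5% lower with Nrf1 and 45.2 to 81.0% lower with Nrf2, and the 9 genes together summed to 301 to 475 RPM with LacZ, 86.2 to 89.2 RPM with Nrf1 and 112 to 115 RPM with Nrf2. A gene was called when the ratio of the 2 group means exceeded 1.5-fold and the adjusted p of limma (Benjamini-Hochberg, over every gene tested) was under 0.05. With Nrf1, 9 of 9 were called lower and 0 higher, beside 17.1% of all 11441 genes tested called lower and 11.4% called higher. With Nrf2, 9 of 9 were called lower and 0 higher, beside 9.72% lower and 9.27% higher of 11619 genes.

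For all 9 genes and in both comparisons, every library with the factor was below every LacZ library. That was so for 34.4% of all genes tested with Nrf1 and for 30.0% with Nrf2. C1qb and C1qc passed the filter on low values (a mean of 10 normalized reads in either group) only through LacZ, so a difference was built into their being tested. The median log2 ratio of the 9 genes was -1.62 with Nrf1 and -1.45 with Nrf2, where the median over all genes tested was 0.0018 and -0.0034. The comparisons share the LacZ libraries, so they are not independent of each other. Without LacZ library b, 9 genes were still called lower with Nrf1 and 8 with Nrf2. In these bulk samples, fewer cells of a type and less RNA per cell cannot be told apart.

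**Figure D1:**
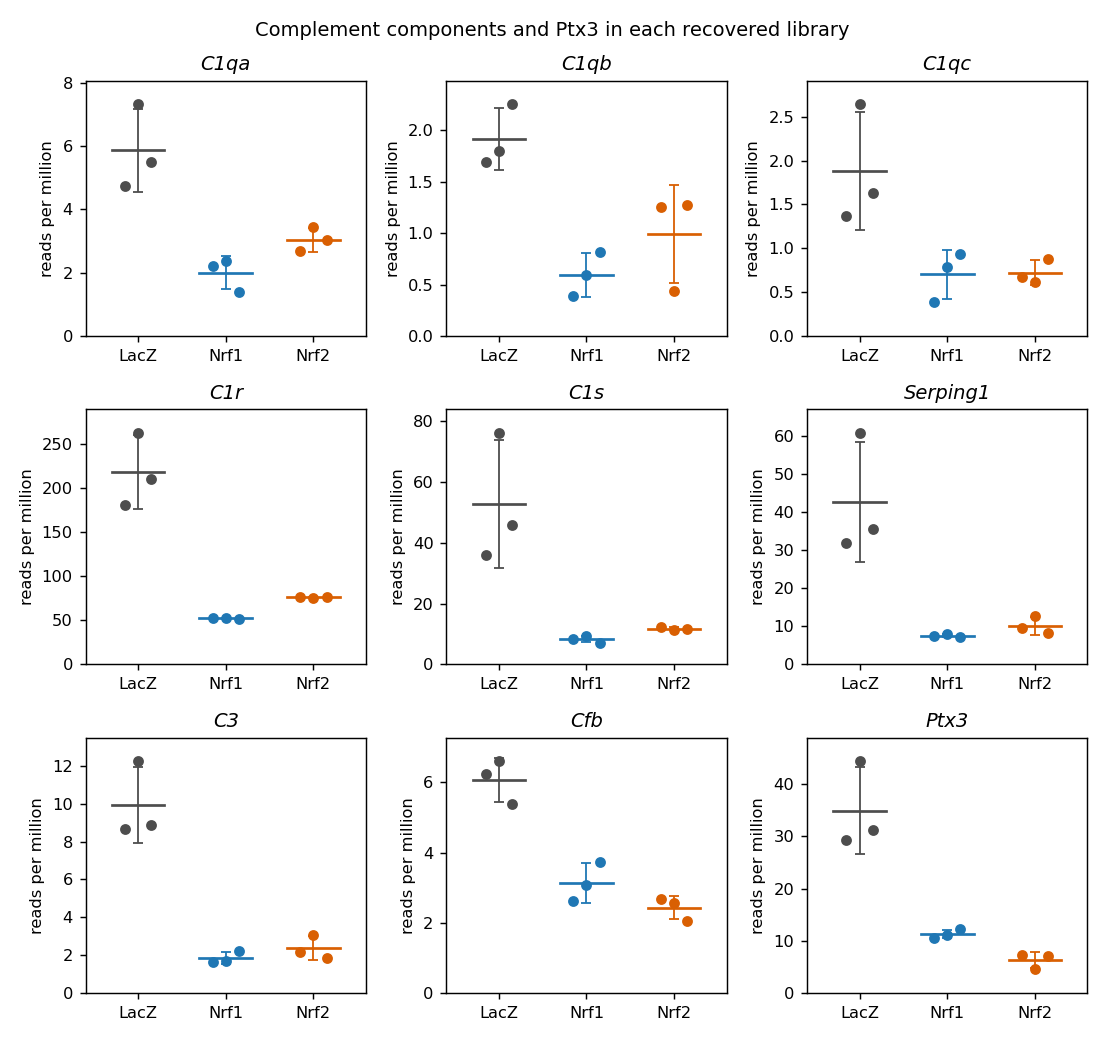
Each panel plots 1 gene in RPM (linear axis from 0) for the 3 libraries of LacZ, Nrf1 and Nrf2 in the order a, b, c; points are libraries, horizontal lines group means and error bars the SD (n = 3). In every panel all Nrf1 and Nrf2 points lie below all LacZ points, for example C1r at 181 to 263 RPM with LacZ against 51.5 to 52.5 RPM with Nrf1 and 75.6 to 76.2 RPM with Nrf2.

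The 3 chains of C1q, the recognition molecule of the classical route, were low in all groups, with 27 to 98 reads per library summed over the 3 genes. C1qa (the A chain) stood at 4.75, 7.32 and 5.51 RPM in LacZ libraries a, b and c, at 2.22, 2.37 and 1.40 RPM with Nrf1 and at 2.67, 3.43 and 3.04 RPM with Nrf2. The 3 groups did not overlap and were ordered LacZ, Nrf2, Nrf1. C1qa fell with Nrf1 (log2 ratio -1.50, limma SE 0.24, adjusted p = 6.67e-05) and less steeply with Nrf2 (-0.87, SE 0.20, adjusted p = 0.00257). Leaving out LacZ library b gave log2 ratios of -1.31 and -0.68, with adjusted p = 0.000391 and 0.0136 in limma.

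For C1qb (the B chain) the libraries gave 1.69, 1.80 and 2.26 RPM with LacZ, 0.386, 0.594 and 0.814 RPM with Nrf1, and 1.25, 0.440 and 1.27 RPM with Nrf2. These values rest on 15 to 18 reads per library with LacZ, 4 to 7 with Nrf1 and 5 to 15 with Nrf2. The Nrf2 libraries were split: library b lay among the Nrf1 values, and libraries a and c lay between the Nrf1 and LacZ values. C1qb fell with Nrf1 (log2 ratio -1.62, SE 0.35, adjusted p = 0.00149 in limma), and gave -1.67 (adjusted p = 0.00322) without LacZ library b. Its call with Nrf2 was narrow (-0.88, SE 0.37, adjusted p = 0.0465 in limma) and was lost without LacZ library a, b or c (adjusted p = 0.0623, 0.0657 and 0.140) or without Nrf2 library b (-0.53, adjusted p = 0.216).

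C1qc (the C chain) was found at 1.37, 2.64 and 1.63 RPM with LacZ, 0.386, 0.791 and 0.930 RPM with Nrf1 and 0.669, 0.616 and 0.882 RPM with Nrf2. Nrf1 and Nrf2 overlapped, and both lay below LacZ. C1qc fell with Nrf1 (log2 ratio -1.36, SE 0.38, adjusted p = 0.00864 in limma) and with Nrf2 (-1.30, SE 0.33, adjusted p = 0.00891). It came close to the threshold without LacZ library b, with log2 ratios of -1.05 and -0.99 and adjusted p = 0.0464 and 0.0481 in limma.

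Leukocyte markers, among them Ptprc (CD45) and Adgre1 (F4/80), moved with the C1q chains. Of 20 leukocyte markers 17 were tested; 16 were called lower with Nrf1 and 15 with Nrf2, and their summed level was 328 to 484 RPM with LacZ, 166 to 179 RPM with Nrf1 and 192 to 195 RPM with Nrf2. The counts were 16 and 14 without LacZ library b. With that library left out Csf1r was called higher with Nrf1 (log2 ratio 0.62, adjusted p = 1.87e-05 in limma). Cx3cr1, a receptor of resident macrophages and monocytes, was at 0 to 2 reads per library, and Hcst, a leukocyte signalling adaptor, had 4 reads summed over LacZ, 9 over Nrf1 and 13 over Nrf2. Of the markers tested, Lcp1 (a leukocyte actin-bundling protein) was not called with Nrf2 (log2 ratio -0.19, adjusted p = 0.239 in limma) and Csf1r was called lower with neither. Csf1r, the receptor for a macrophage growth factor, stood at 23.3 to 37.3 RPM with LacZ, 35.3 to 41.7 RPM with Nrf1 and 26.3 to 33.2 RPM with Nrf2. Summed C1q was 2.38 to 2.86% of the summed leukocyte markers with LacZ, 1.80 to 2.09% with Nrf1 and 2.30 to 2.70% with Nrf2. The share depends in part on Csf1r, the only marker left out of it, after its values were seen. With Csf1r left out the share was 2.56 to 3.14% with LacZ, 2.29 to 2.68% with Nrf1 and 2.73 to 3.27% with Nrf2. Both groups with a factor then overlapped LacZ, Nrf1 only through library b (2.68%), with means of 2.49% with Nrf1 and 2.78% with LacZ. The part of leukocyte content in the C1q differences was not tested.

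C1r, the protease that activates C1s, was the most deeply covered of the 9 genes, with 443 to 2188 reads per library. It stood at 181, 263 and 211 RPM with LacZ, at 52.5, 52.4 and 51.5 RPM with Nrf1 and at 76.2, 75.6 and 76.1 RPM with Nrf2. The groups with a factor were tight around their means (SD 0.560 RPM with Nrf1 and 0.315 RPM with Nrf2, n = 3 each), and the spread lay in LacZ (SD 41.4 RPM, n = 3). Counting error alone would give more than those small SDs at 443 to 544 reads per Nrf1 library and 776 to 912 per Nrf2 library. They therefore understate the spread. C1r fell 4.02-fold with Nrf1 (log2 ratio -2.01, SE 0.09, adjusted p = 1.57e-11 in limma) and 2.73-fold with Nrf2 (-1.45, SE 0.09, adjusted p = 7.98e-09). Without LacZ library b the log2 ratios were -1.86 and -1.30.

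C1s, the protease that cuts C4 and C2, stood at 35.9, 76.2 and 46.0 RPM with LacZ, 8.49, 9.30 and 7.21 RPM with Nrf1 and 12.2, 11.2 and 11.8 RPM with Nrf2. LacZ library b was well above the others, yet the lowest LacZ library still exceeded all 6 libraries with a factor. With Nrf1 it fell 6.07-fold, the largest fold of the 9 genes in that comparison (log2 ratio -2.60, SE 0.19, adjusted p = 9.05e-09 in limma), and with Nrf2 4.27-fold (-2.09, SE 0.18, adjusted p = 4.39e-07). Leaving out LacZ library b gave log2 ratios of -2.25 and -1.74.

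Serping1, the C1 inhibitor that binds and inactivates C1r and C1s, stood at 31.9, 60.8 and 35.5 RPM with LacZ, 7.34, 7.91 and 7.21 RPM with Nrf1 and 9.61, 12.6 and 8.14 RPM with Nrf2. The inhibitor was thus lower together with its target proteases, again with LacZ library b on top. Serping1 fell 5.47-fold with Nrf1 (log2 ratio -2.45, SE 0.17, adjusted p = 5.36e-09 in limma) and 4.01-fold with Nrf2 (-2.002, SE 0.20, adjusted p = 1.15e-06). Without LacZ library b these log2 ratios were -2.12 and -1.67.

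Ratios of reads within a library describe how these 3 genes stood to each other. Serping1 had 0.771 to 0.888 reads per C1s read with LacZ, 0.851 to 1.00 with Nrf1 and 0.692 to 1.13 with Nrf2, so the groups overlapped. C1r had 3.45 to 5.04 reads per C1s read with LacZ, 5.64 to 7.15 with Nrf1 and 6.25 to 6.76 with Nrf2. That ratio was higher in every library with a factor than in any LacZ library, and lowest in LacZ library b. These ratios are a description, and no test was run on them.

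Fibroblast markers moved with C1r, C1s and Serping1. All 12 were called lower with Nrf1 and 10 of 12 with Nrf2, and their summed level was 13833 to 14788 RPM with LacZ, 3506 to 3760 RPM with Nrf1 and 6976 to 7530 RPM with Nrf2; without LacZ library b the counts were 12 and 10. C1r was 1.31 to 1.78% of the summed fibroblast markers with LacZ, 1.39 to 1.47% with Nrf1 and 1.01 to 1.08% with Nrf2. Col1a1 and Col3a1 made up 84.7 to 88.5% of that sum in each library. Over the other 10 markers C1r was 11.4 to 13.7% with LacZ, 9.42 to 9.69% with Nrf1 and 8.16 to 8.70% with Nrf2, below LacZ with both, so the place of Nrf1 against LacZ turned on those collagens. With Nrf2 the log2 ratios of the 12 markers ran from -0.40 for Pdgfra to -1.83 for Tcf21, with a median of -0.97. Between these lay Col1a2 (-0.49), Col1a1 (-0.88), Col3a1 (-0.99), Dcn (-1.20) and Lum (-1.44). C1r gave -1.45, a larger fall than every marker but Tcf21, though hardly apart from Lum. C1s (-2.09) and Serping1 (-2.002) fell more than any of the 12. With Nrf1 the markers ran from -0.92 for Tcf21 to -2.43 for Col1a2, with a median of -1.82. There C1r (-2.01) fell less than Col1a2, Dcn (-2.30) and Col3a1 (-2.07). C1s (-2.60) fell more than any of the 12 with Nrf1, and Serping1 (-2.45) was hardly apart from Col1a2. Of 10 endothelial markers, 7 were lower and 0 higher with Nrf1, and 6 lower and 1 higher (Egfl7, log2 ratio 0.81, adjusted p = 0.000187 in limma) with Nrf2 (165 to 171 RPM summed with LacZ, 112 to 123 with Nrf1, 107 to 132 with Nrf2). Among 11 cardiomyocyte markers, 4 were lower and 2 higher with Nrf1, and 0 were called with Nrf2 by limma's adjusted p with the fold cutoff. With LacZ library b left out, 7 endothelial markers were lower with each factor, and 4 cardiomyocyte markers were lower and 1 higher with Nrf1. The part of fibroblast, endothelial or cardiomyocyte content in the differences of the 9 genes was not tested.

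**Figure D2:**
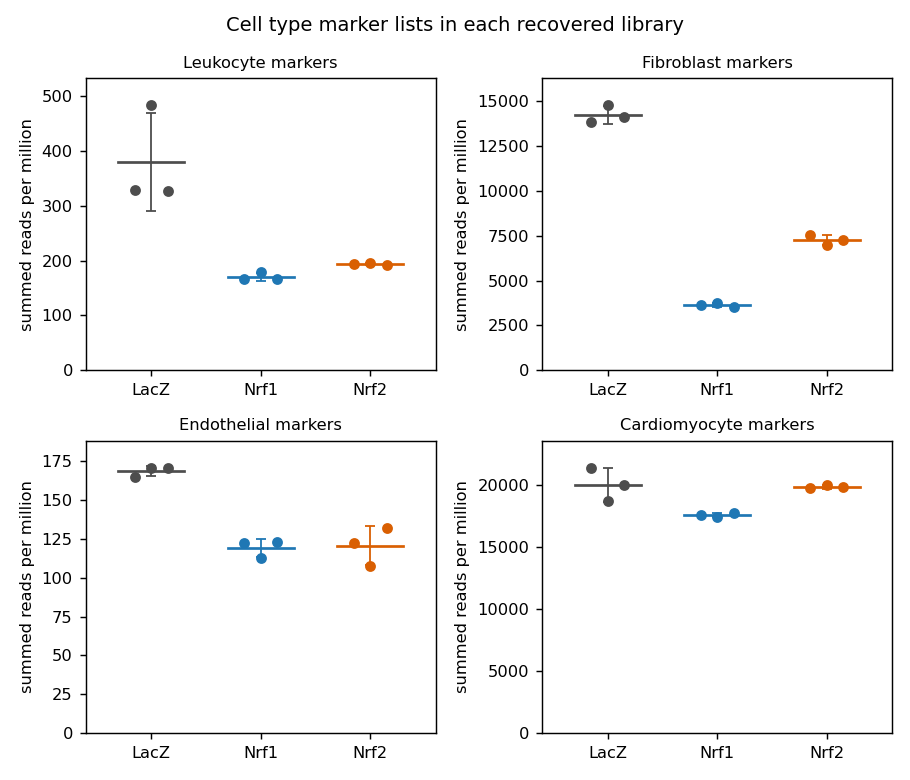
The 4 panels plot the summed RPM of leukocyte, fibroblast, endothelial and cardiomyocyte markers in each library (linear axes from 0; points are libraries a, b and c, lines means, error bars SD, n = 3). Leukocyte, fibroblast and endothelial sums are below LacZ in all 6 libraries with a factor. The leukocyte sum is at 166 to 179 RPM with Nrf1 and 192 to 195 RPM with Nrf2 against 328 to 484 RPM. The cardiomyocyte sum is below LacZ with Nrf1 (17415 to 17703 against 18664 to 21381 RPM) and within the LacZ range with Nrf2 (19714 to 19984 RPM).

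C3, the component on which all complement routes meet, stood at 8.66, 12.2 and 8.90 RPM with LacZ, 1.64, 1.68 and 2.21 RPM with Nrf1 and 2.17, 3.08 and 1.86 RPM with Nrf2. Nrf1 and Nrf2 overlapped far below LacZ. C3 fell 5.18-fold with Nrf1 (log2 ratio -2.37, SE 0.20, adjusted p = 5.93e-08 in limma) and 3.98-fold with Nrf2 (-1.99, SE 0.21, adjusted p = 2.06e-06). The log2 ratios were -2.20 and -1.82 without LacZ library b.

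Cfb (factor B, which joins C3b to form the C3-cleaving enzyme of the alternative route) stood at 6.23, 6.60 and 5.39 RPM with LacZ, 2.61, 3.07 and 3.72 RPM with Nrf1 and 2.67, 2.55 and 2.06 RPM with Nrf2. The LacZ libraries were close together here, and LacZ library b was not far above the others. Cfb had the smallest fall of the 9 genes with Nrf1, 1.87-fold (log2 ratio -0.90, SE 0.19, adjusted p = 0.000732 in limma), and fell 2.38-fold with Nrf2 (-1.25, SE 0.19, adjusted p = 7.62e-05). Cfb gave 0.539 to 0.720 reads per C3 read with LacZ, 1.59 to 1.82 with Nrf1 and 0.829 to 1.23 with Nrf2, so Cfb had more reads for each C3 read in all 6 libraries with a factor than in any LacZ library. Log2 ratios for Cfb without LacZ library b were -0.84 and -1.19.

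Ptx3, a long pentraxin that binds C1q and microbial surfaces and is made by many stromal and myeloid cells on inflammatory stimuli, stood at 29.2, 44.4 and 31.2 RPM with LacZ, 10.6, 11.1 and 12.2 RPM with Nrf1 and 7.27, 4.49 and 7.16 RPM with Nrf2. The 3 groups did not overlap, in the order LacZ, Nrf1, Nrf2. Ptx3 fell 2.97-fold with Nrf1 (log2 ratio -1.57, SE 0.13, adjusted p = 3.36e-08 in limma) and 5.26-fold with Nrf2 (-2.40, SE 0.18, adjusted p = 5.94e-08), the largest fold of the 9 genes with Nrf2. The log2 ratios without LacZ library b were -1.37 and -2.19.

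**Figure D3:**
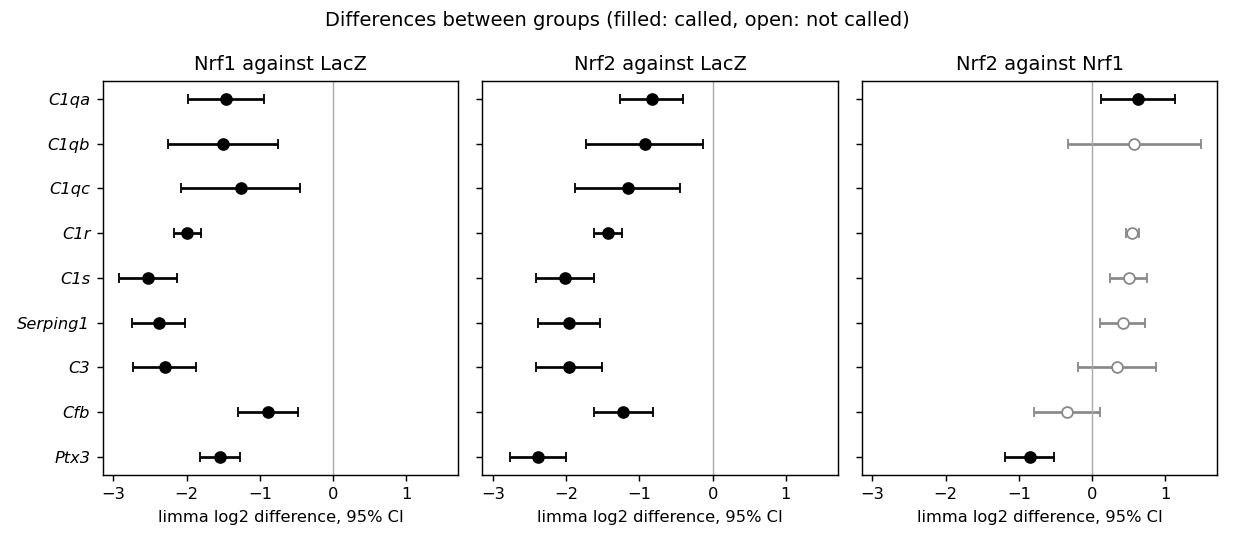
Points give limma's log2 difference of normalized reads plus 1 for each gene in the 3 comparisons, with 95% confidence intervals; filled points were called and open points were not, and C1qc was under the filter in the right panel. Against LacZ all 9 intervals lie below 0 in both panels, and in the right panel those of C1qa, C1r, C1s and Serping1 lie above 0 and that of Ptx3 below it.

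The direct comparison of Nrf2 with Nrf1 asks where the factors differed, and uses no LacZ library. C1qa was called higher with Nrf2 (log2 ratio 0.62, SE 0.24, adjusted p = 0.0336 in limma) and Ptx3 lower (-0.83, SE 0.16, adjusted p = 0.000199). That is 1 gene higher and 1 lower of 9, of which 8 were tested, beside 11.3% of 11504 genes called higher and 4.72% lower. C1qa lost its call without Nrf1 library c (adjusted p = 0.155), Nrf2 library b (0.116) or Nrf2 library c (0.0718).

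C1r and its neighbours in the cascade passed the adjusted p but not the 1.5-fold cutoff. C1r was 1.47-fold higher with Nrf2 than with Nrf1 (log2 ratio 0.55, SE 0.04, adjusted p = 9.10e-09 in limma), C1s 1.41-fold (0.50, SE 0.12, adjusted p = 0.00161) and Serping1 1.36-fold (0.44, SE 0.15, adjusted p = 0.0205). Over all genes tested 58.7% passed this adjusted p. Serping1 no longer passed it without Nrf1 library a (0.0525), Nrf1 library c (0.0537) or Nrf2 library b (0.160, log2 ratio 0.25). For all 3, every Nrf2 library was above every Nrf1 library. Across the 9 genes, 4 stood above without overlap and 1 below, and 4 overlapped, where 31.4% of all genes tested stood above and 32.3% below.

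The remaining 4 genes gave no difference past the threshold between the factors. The log2 ratio of Nrf2 over Nrf1 was 0.37 for C3 (adjusted p = 0.264 in limma, 95% interval of the limma difference -0.19 to 0.87), 0.74 for C1qb (adjusted p = 0.264, -0.33 to 1.49) and -0.36 for Cfb (adjusted p = 0.187, -0.79 to 0.11). C1qc was under the filter, with authors' means of 7.250 and 7.504 normalized reads. The intervals of C3 and C1qb include a difference as large as that of C1r. C1qb passed the filter here only through Nrf2 (authors' means of 6.17 and 10.3), so it had to differ in that direction, and its call without the low Nrf2 library b (1.09, adjusted p = 0.0472) is no support for one. C1s and C1r stood near the fold cutoff, which C1s passed without Nrf1 library b (0.59, adjusted p = 0.00110) and C1r when ratios were centred on the median gene (0.59).

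Beyond the 9 genes, 51 other complement and pentraxin genes were looked up, and most of those tested were lower with Nrf1. With Nrf1, 31 were tested, 21 were called lower and 1 higher, with a median log2 ratio of -0.95. Over all 11441 genes tested, 17.1% were called lower and 11.4% higher, with a median of 0.0018. With Nrf2, 32 were tested, 12 were called lower and 3 higher, with a median of -0.55. Beside these, 9.72% of all 11619 genes tested were called lower and 9.27% higher, with a median of -0.0034. Of those called lower, 6 with Nrf1 and 4 with Nrf2 passed the filter only through LacZ. These were C4a, C4b, Cfd and Colec10 in both, and C8a and C4bpa with Nrf1. Of the 3 called higher with Nrf2, Apcs (0 with LacZ) passed it only through Nrf2. The counts and medians therefore hold genes that had to differ. Without LacZ library b, 17 of 30 and 9 of 31 were called lower.

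Components that act directly after C1 moved with it. C2, which C1s cuts, stood at 26.4, 45.4 and 34.6 RPM with LacZ, 12.8, 13.3 and 14.6 RPM with Nrf1 and 17.3, 17.96 and 18.7 RPM with Nrf2, and was called lower in both comparisons (log2 ratio -1.33 and -0.90, limma adjusted p = 7.68e-07 and 0.000106). C4a and C4b, close copies of the C4 gene among which reads could have been divided, had 33 and 62 reads summed over the LacZ libraries, 1 and 3 over Nrf1 and 5 and 14 over Nrf2. Both were called lower with each factor, and no fold is given for Nrf1 at so few reads. C1rl, a C1r-like protease, was called lower with Nrf1 (-0.96, limma adjusted p = 0.00647) and was under the fold cutoff with Nrf2 (-0.53, adjusted p = 0.0495), where leaving out LacZ library a brought a call (-0.63, adjusted p = 0.0379). C4a was under the filter without LacZ library b.

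In the lectin route, which starts from sugar-binding proteins, Masp1 (a protease akin to C1r and C1s) was called lower with Nrf1 (log2 ratio -1.12, limma adjusted p = 1.75e-06) and stayed under the fold cutoff with Nrf2 (-0.56, adjusted p = 0.00138), which it passed without LacZ library a (-0.67) or Nrf2 library c (-0.61). Masp2 gave -0.11 and -0.28 (adjusted p = 0.516 and 0.150). Colec12, a collectin that serves as a scavenger receptor, fell with both (-0.92 and -0.66, adjusted p = 3.70e-08 and 2.33e-06). Colec10, a secreted collectin, was called lower in both (-1.36 and -1.66, adjusted p = 0.0425 and 0.0211) on 34 LacZ reads in all. The Colec10 call with Nrf1 was lost without LacZ library b (adjusted p = 0.0762) or Nrf1 library a, b or c (0.0821, 0.0734 and 0.0825), that with Nrf2 without Nrf2 library b (0.0693), and without LacZ library a it was under the filter. Fcna (ficolin) was called in neither (-1.10 and -0.81, adjusted p = 0.0537 and 0.145), and in both without LacZ library c (0.0145 and 0.0311).

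Cfd, the protease that cuts factor B, was called lower with both (log2 ratio -1.41 and -0.93, limma adjusted p = 0.00860 and 0.0490), whereas Cfp (properdin, which steadies the alternative enzyme) was not (-0.34 and -0.32, adjusted p = 0.124 and 0.147). Of the terminal components 1 was tested: C8a was called lower with both (-1.89 and -0.65, adjusted p = 0.000100 and 0.0475). With Nrf2, leaving out LacZ library b or c or any Nrf2 library ended the Cfd call (adjusted p = 0.0797 to 0.196), and leaving out LacZ library a or b or any Nrf2 library ended that of C8a (0.0635 to 0.169). C8a was also called higher with Nrf2 than with Nrf1 (1.23, adjusted p = 0.00449). In that comparison it passed the filter only through Nrf2 (authors' means of 7.10 with Nrf1 and 16.6 with Nrf2). It therefore had to differ in that direction.

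The regulators did not move as a block. Cd59, the surface inhibitor of the membrane attack complex, went the other way, at 160, 152 and 168 RPM with LacZ, 321, 321 and 326 RPM with Nrf1 and 873, 906 and 851 RPM with Nrf2. It rose with Nrf1 (log2 ratio 1.07, SE 0.04, adjusted p = 5.40e-12 in limma) and with Nrf2 (2.53, SE 0.04, adjusted p = 8.17e-15), and was higher with Nrf2 than with Nrf1 (1.45, adjusted p = 5.75e-18).

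Cd55, which speeds the decay of C3-cleaving enzymes, stood at 101 to 103 RPM with LacZ, 116 to 126 RPM with Nrf1 and 73.2 to 77.5 RPM with Nrf2, and was called lower with Nrf2 than with Nrf1 (log2 ratio -0.69, limma adjusted p = 3.01e-10). Cr1l, a membrane regulator of rodents also known as Crry, fell with Nrf1 (-0.69, adjusted p = 2.26e-08), was not called with Nrf2 (0.12, adjusted p = 0.0629), and was higher with Nrf2 than with Nrf1 (0.79, adjusted p = 1.33e-10).

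C1qbp, a mostly mitochondrial protein first named for binding C1q, was called lower with Nrf1 (log2 ratio -0.60, limma adjusted p = 2.04e-09) and not with Nrf2 (-0.09, adjusted p = 0.0767), and without Nrf1 library b it was under the fold cutoff with Nrf1 (-0.58). Clu (clusterin) was abundant and gave -0.01 and 0.01 (adjusted p = 0.785 and 0.770). C4bpa was called lower with Nrf1 (-0.95, adjusted p = 0.0255) but not with Nrf2 (-0.58, adjusted p = 0.143), and C4bpb, its partner chain, in neither (-0.41 and -0.66, adjusted p = 0.226 and 0.0725). The C4bpa call was lost without LacZ library b or c or Nrf1 library a or c (adjusted p = 0.0662 to 0.0860), and C4bpb gained one with Nrf2 without LacZ library a (0.0412). Cd46 (-0.26 and 0.35, adjusted p = 0.486 and 0.345) and Susd4 (0.03 and -0.07, adjusted p = 0.879 and 0.996) passed in neither.

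Receptors for complement fragments are carried largely by leukocytes, and 5 of 6 tested were lower with Nrf1 and 4 of 6 with Nrf2. Itgam and Itgb2, the chains of complement receptor 3, gave log2 ratios of -1.58 and -1.17 with Nrf1 (limma adjusted p = 3.06e-07 and 1.87e-05) and -1.14 and -1.14 with Nrf2 (adjusted p = 0.00105 and 6.22e-05). C5ar1, a receptor for C5a, fell with both (-1.51 and -1.30, adjusted p = 6.30e-05 and 0.000350), as did Cd93, a surface protein of endothelial and myeloid cells (-1.27 and -0.99, adjusted p = 4.62e-08 and 3.84e-06).

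C5ar2, the other C5a receptor, was called lower with Nrf1 (log2 ratio -1.08, limma adjusted p = 0.00166), was not called with Nrf2 (-0.32, adjusted p = 0.223) and was higher with Nrf2 than with Nrf1 (0.75, adjusted p = 0.0145), a call lost without Nrf1 library c (0.0654) or Nrf2 library b (0.0694). C3ar1, the C3a receptor, differed in sign from the rest: 4.44 to 5.26 RPM with LacZ, 5.70 to 6.73 RPM with Nrf1 and 5.90 to 6.94 RPM with Nrf2. Its log2 ratios of 0.43 and 0.45 (adjusted p = 0.0318 and 0.0249) were under the fold cutoff.

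Among the other pentraxins 1 was called in opposite directions with the factors. Nptx2, a neuronal pentraxin, stood at 6.76, 6.48 and 7.14 RPM with LacZ, 3.09, 4.55 and 4.65 RPM with Nrf1 and 101, 111 and 102 RPM with Nrf2. It was called lower with Nrf1 (log2 ratio -0.67, adjusted p = 0.00428 in limma; -0.51, under the fold cutoff, without Nrf1 library a) and rose with Nrf2 (4.02, SE 0.08, adjusted p = 2.57e-14), while Ptx3 fell with both.

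Apcs, serum amyloid P, had 0 reads in all 6 LacZ and Nrf1 libraries and 22, 22 and 24 reads in the Nrf2 libraries. Set against the 3 reads that a count of 0 over a group allows, that is at least 17.4-fold higher with Nrf2 than with LacZ and at least 19.7-fold higher than with Nrf1, a bound that covers counting error only. Nptx1 fell with both factors (log2 ratio -1.05 and -0.76, limma adjusted p = 8.72e-05 and 0.000934), and Nptxr, the neuronal pentraxin receptor, was called lower with Nrf1 (-0.82, adjusted p = 4.37e-08) and not with Nrf2 (-0.33, adjusted p = 0.000537), where it was under the fold cutoff.

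**Figure D4:**
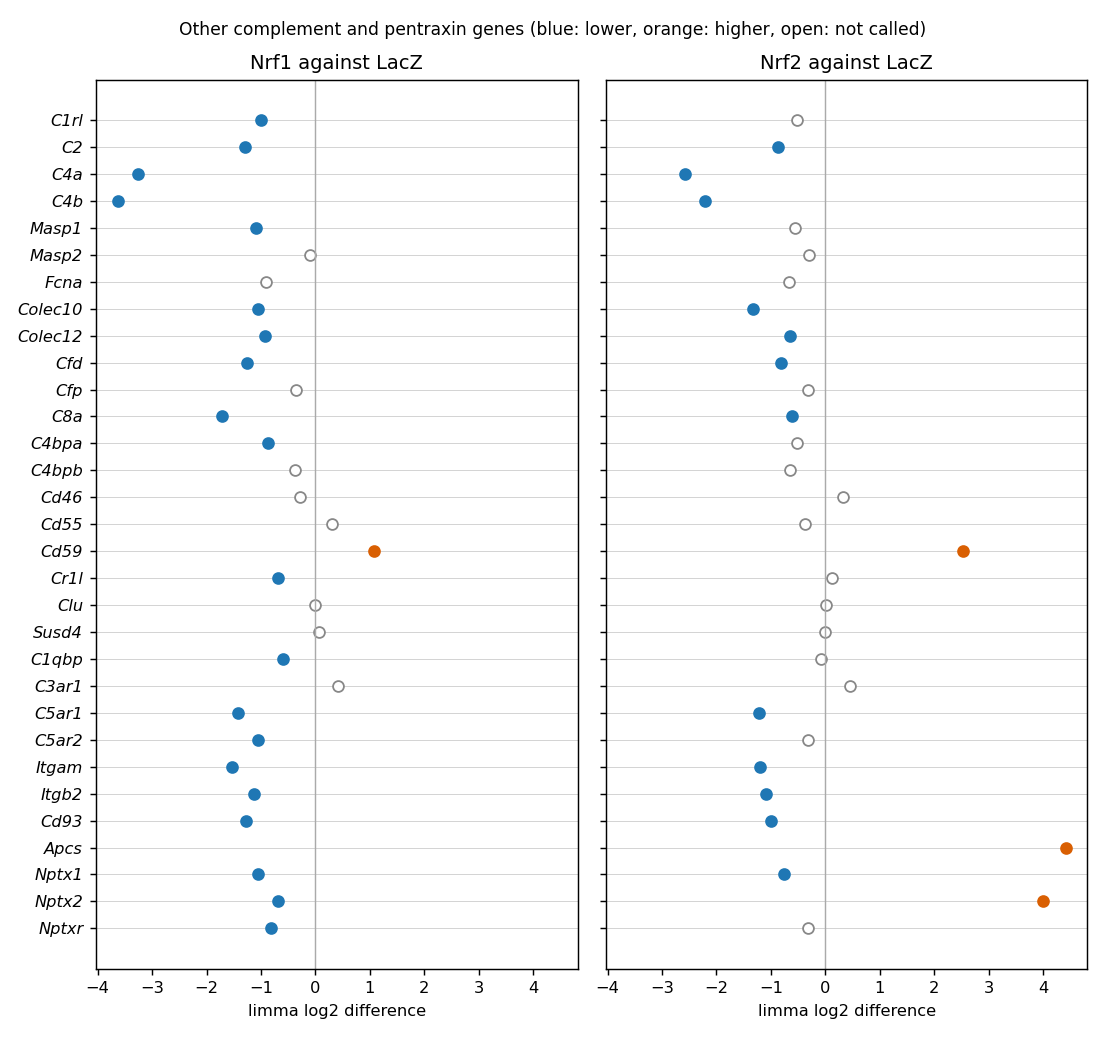
Points give limma's log2 difference of normalized reads plus 1 for the other complement and pentraxin genes reported here and tested in either comparison with LacZ (same axis in both panels), in blue where called lower, in orange where called higher and open where not called; Apcs, at 0 reads with LacZ, depends on the 1 read added. Most points lie left of 0, Cd59 is to the right in both panels, and Nptx2 is to the left with Nrf1 and far to the right with Nrf2.

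Between the factors, 27 of the 51 other genes were tested, 6 were called higher with Nrf2 and 1 lower, with a median log2 ratio of 0.42 beside -0.0047 over all genes tested. Over all genes tested, 11.3% were called higher and 4.72% lower. The 6 higher were C8a, Cd59, Cr1l, C5ar2, Apcs and Nptx2, and the lower 1 was Cd55. C8a, Apcs and the uncalled C4bpa (authors' means of 9.87 with Nrf1 and 12.7 with Nrf2) passed the filter only through Nrf2. The count and the median therefore hold genes that had to be higher with Nrf2. Leaving out 1 library brought calls for Masp1 (without Nrf1 library a or Nrf2 library a), Cd46 (Nrf1 library b), C1rl (Nrf1 library c) and Itgam (Nrf2 library a), all higher with Nrf2. Leukocyte markers gave 5 of 17 higher and fibroblast markers 8 of 12 higher and 1 lower in the same comparison, and their part was not tested.

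The genes most like each of the 9 in pattern were found by the distance over the 3 log2 ratios of the authors' means, among the 8290 genes that reached 100 normalized reads in 1 or both groups of each table. The ratios come from 3 groups and the third nearly follows from the other two, so this is a description only. C3, C1qa, C1qb, C1qc and Cfb did not reach 100 reads, so they could not come up as a nearest gene. Among the candidates Serping1 was nearest to C1s (distance 0.18 on the log2 scale), and C1s nearest to Serping1. C3, which was no candidate, lay closer to Serping1 (0.11) than C1s did. Next to both stood Olr1, a receptor for oxidized LDL (0.37 and 0.19), then Ifitm3 for C1s (0.59) and Itga4 for Serping1 (0.62). Nearest to C3 were Serping1 (0.11), Olr1 (0.16) and C1s (0.28).

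C1r was followed most closely by Ifi27l2b (0.07), Lum (0.13, a matrix proteoglycan on the fibroblast list) and Ltbp2 (0.18, a matrix protein). C1qa had Ctsz, Serpinb9 and Plg (0.04, 0.07 and 0.07), C1qb had Pltp, C1qtnf1 and Psmb9 (0.04, 0.08 and 0.09), and C1qc had Cybb, Rassf4 and Isg20 (0.04, 0.07 and 0.08). These C1q distances are smaller than limma's SEs for the chains against LacZ (0.20 to 0.38). Which genes came out nearest to them is therefore uncertain. Cfb was closest to Edn1 (endothelin 1), Tie1 and Gpc3 (0.17, 0.18 and 0.20). Ptx3 had no close match: Grem1, Lyz2 and Icam1 were at 0.81, 0.99 and 1.05.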

How the data were processed

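RNA of 9 samples (3 each of LacZ, Nrf1 and Nrf2) was sequenced by the authors as stranded mRNA libraries. The submitters' processing notes name HISAT2 2.0.4, featureCounts 1.6.0 and rat build Rnor_6.0. The 3 deposited tables, 1 per pair of groups, hold a signal: the authors' mean per group of reads divided by library size factors. Columns with the authors' fold changes and p-values were not used.

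Each mean is a sum of 3 whole read counts times 3 steps. Steps were estimated from the lowest means, and each gene was solved for whole reads within the printed digits, requiring the 2 tables holding a group to share them. Of the genes at 10 normalized reads or more, 100% (LacZ), 99.8% (Nrf1) and 99.8% (Nrf2) had 1 solution, and of 1000 means per group shifted by part of a read 0 had one. The per-library values rest on this step. Depth was 7980658 to 11965122 reads per library; few reads limit C1qb and C1qc.

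limma 3.58.1 in R 4.3.3 (lmFit, eBayes with trend) was fitted per pair on log2(normalized reads + 1) for genes that reached 10 normalized reads in 1 or both group means, with Benjamini-Hochberg adjustment; differences on that scale understate changes of low genes. Printed log2 ratios are those of the group means; SEs and intervals are limma's. Calls required over 1.5-fold and adjusted p under 0.05. Code was tested on simulated data. Named genes were the 9, the other listed complement and pentraxin genes that passed this filter (1 of them is counted but not reported here), and the 3 nearest in pattern. Genes and lists were chosen with earlier results of these data known; the marker genes named singly were named after their values were seen. Alternatives changed cutoffs, filter, pseudocount, scaling, method and libraries. No sequence is shown, since the reference used was not of rat.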

Additional observations from a re-analysis of the deposited data

Results flagged for a closer look

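For 5 of the 8 genes tested the effects of Nrf1 and Nrf2 differed by the direct test between the factors (limma, adjusted p over all genes tested), beside 58.7% of all genes tested. The log2 ratio of Nrf2 over Nrf1 was 0.55 for C1r (adjusted p = 9.10e-09), 0.50 for C1s (adjusted p = 0.00161), 0.62 for C1qa (adjusted p = 0.0336), 0.44 for Serping1 (adjusted p = 0.0205) and -0.83 for Ptx3 (adjusted p = 0.000199). C1r, C1s, C1qa and Serping1 were higher in 3 of 3 Nrf2 libraries than in any Nrf1 library, and Ptx3 was lower in 3 of 3; over all genes 31.4% stood above and 32.3% below. Serping1 missed the threshold without Nrf1 library a (0.0525), Nrf1 library c (0.0537) or Nrf2 library b (0.160), and C1qa without Nrf1 library c (0.155), Nrf2 library b (0.116) or Nrf2 library c (0.0718). Summed fibroblast markers were also higher with Nrf2 (6976 to 7530 RPM) than with Nrf1 (3506 to 3760 RPM), as were leukocyte markers (192 to 195 against 166 to 179 RPM), and their part in these differences was not tested.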

How the results depend on the processing

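Over 232 alternative values of the 9 genes' log2 ratios, 222 kept their direction and side of the threshold, 7 lost a call, 3 gained one and 0 turned direction. Some of these could not turn direction. The pseudocount does not enter the ratio of group means and could act only through the adjusted p. Centring on the median gene moved ratios by at most 0.054 and left the adjusted p as it was. Of the 9 genes called lower against LacZ, 4 remained testable and called at a mean of at least 100 with Nrf1 and 4 with Nrf2, since that filter removed the others; leaving out 1 library at a time gave 9 to 9 genes with Nrf1 and 8 to 9 with Nrf2. The 1 gene called higher with Nrf2 than with Nrf1 became 0 at a fold cutoff of 2, 4 with no fold cutoff, 0 at adjusted p under 0.01, 0 with no filter on low means, 0 at a mean of at least 100 and 2 with ratios centred on the median gene, and 0 to 2 when 1 library was left out; the cutoffs and the filter at 100 act by construction, and for the others the cause was not tested. Leaving out libraries for the other genes and marker lists, and markers from the C1q and C1r shares, was added after seeing the data. No paired analysis was possible because the recovered libraries carry no replicate number. Depth limited C1qb and C1qc, at 4 to 22 reads per library.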
